A study of Homo sapiens with 4 samples.

Results

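The 37 genes described here repair DNA breaks and crosslinks by homologous recombination and the Fanconi anemia pathway, or act beside them in mismatch repair, in the DNA damage checkpoint and in nucleotide excision repair. They were chosen by name, with earlier results of these data known, so their shares beside those of all genes describe the list and test nothing. Each was read through its probe sets that carry that symbol alone in the platform's gene table, and its value is that of the probe set with the highest mean log2 signal over the arrays. Of the 37 genes, 33 had such a probe set, out of 18132 genes in all, with 83 probe sets between them; BRCA2, FANCA, FANCD2 and RBBP8 are not analysed here. In 30 of the 33 the mean signal over all arrays reached 63.0, the median of all signals on the arrays, used here as a floor for dim genes, and 10821 genes of the whole table did so.

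The samples were U87MG cells, an established human glioblastoma line obtained from ATCC and grown in DMEM with fetal bovine serum. They received 10 µM mycophenolic acid (MPA), 100 µM guanosine, both compounds, or DMSO as the control, and RNA was taken at 24 h. MPA inhibits IMP dehydrogenase, which commits purines to guanine nucleotides, and guanosine can enter the guanine nucleotide pool by salvage; the series title names this enzyme and the nucleolus in glioblastoma. Total RNA was read on Affymetrix PrimeView arrays, 1 array per condition, so no value below has a replicate error, no test of a difference was possible, and a difference is between 2 arrays.

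In homologous recombination, a double-strand break is cut back to single-stranded DNA, the BRCA proteins and their partners prepare that strand to pair with the sister chromatid, and the lost sequence is copied from there. The Fanconi core complex attaches ubiquitin to the FANCD2-FANCI pair at stalled forks and crosslinks, which starts crosslink unhooking and hands the break to recombination. Many of these genes are transcribed mainly in S phase under E2F control. DDB2 and XPC find ultraviolet lesions for nucleotide excision repair.

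The array values that bear on the cells and RNA were as follows. All 9 measured glioma and mesenchymal markers, VIM and CD44 among them, were above the floor, whereas 6 of 9 astrocyte and glial stem markers, SOX2 and OLIG2 included, were below it. None of 5 measured leukocyte markers reached the floor (0 of 5), and of the endothelial, epithelial, and neuron and oligodendrocyte markers 2 of 5, 2 of 4 and 2 of 5 did. The summed signal of the neuron and oligodendrocyte list was 2109 with MPA, 1456 with guanosine, 1495 with both compounds and 1364 in the control, and the epithelial sum was 261, 199.8, 193.8 and 206.8 in that order of arrays. Most of the first difference was SNAP25, at 1867 with MPA and 1144 in the control, and most of the second was EPCAM, at 102.2 with MPA and 55.5 in the control. The 12 poly-A spike-in probe sets, for RNA added before labelling, had a median log2 difference from control of -0.29 with MPA, 0.22 with guanosine and 0.27 with both compounds, and the 6 background probe sets of highest GC content had 0.26, -0.08 and -0.15. The part of these shifts in the results below was not tested.

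Promoter sequences of the genes furthest from control with MPA show what lies at their starts. The RefSeq table (GRCh38.p14) held a window of 250 bases before to 50 bases after a transcript start for 30 of the 33 measured genes. The following short patterns were searched on both strands: the E2F-type letters TTTCCCGC, TTTGGCGC, TTTCGCGC and TTTGCCGC, the cell cycle homology region TTTGAA and the NF-Y box CCAAT. The windows below run to base 30 after the start, 5′ to 3′ along the gene, and capitals mark E2F-type letters. EXO1, the lowest gene with MPA, is shown at the first of its 2 annotated starts, chr1:241847954-241848233 (plus strand). FANCB, the next lowest by measured difference, is shown at chrX:14873040-14873319 (minus strand). DDB2, the highest, is shown at the first of its 2 annotated starts, chr11:47214204-47214483 (plus strand), and XPC, the second highest, at chr3:14178572-14178851 (minus strand).
EXO1: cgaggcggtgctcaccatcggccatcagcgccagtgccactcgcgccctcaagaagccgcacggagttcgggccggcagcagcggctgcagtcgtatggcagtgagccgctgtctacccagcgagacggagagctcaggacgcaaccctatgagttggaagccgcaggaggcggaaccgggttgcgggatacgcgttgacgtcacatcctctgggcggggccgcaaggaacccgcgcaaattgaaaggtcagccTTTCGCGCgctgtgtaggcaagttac
FANCB: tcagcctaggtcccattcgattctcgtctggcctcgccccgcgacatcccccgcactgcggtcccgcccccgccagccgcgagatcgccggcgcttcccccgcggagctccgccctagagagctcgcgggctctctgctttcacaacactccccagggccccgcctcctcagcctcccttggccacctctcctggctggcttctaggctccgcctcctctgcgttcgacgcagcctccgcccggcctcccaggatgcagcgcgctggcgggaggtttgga
DDB2: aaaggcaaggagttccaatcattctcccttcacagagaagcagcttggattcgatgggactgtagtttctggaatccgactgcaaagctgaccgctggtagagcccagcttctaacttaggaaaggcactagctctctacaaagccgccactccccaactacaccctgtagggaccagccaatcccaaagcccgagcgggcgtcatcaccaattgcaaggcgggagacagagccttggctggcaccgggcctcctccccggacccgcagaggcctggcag
XPC: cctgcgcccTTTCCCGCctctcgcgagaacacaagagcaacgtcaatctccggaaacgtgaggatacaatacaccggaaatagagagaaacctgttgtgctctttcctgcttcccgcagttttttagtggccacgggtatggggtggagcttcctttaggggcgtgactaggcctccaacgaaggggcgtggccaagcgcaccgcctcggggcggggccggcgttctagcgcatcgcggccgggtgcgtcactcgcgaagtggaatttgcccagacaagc

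EXO1 held an E2F-type match 5 bases into the transcript at the start shown, and none at its second start, which is not shown. XPC held one 241 bases before its start. DDB2 held CCAAT at 236, 72 and 42 bases before the start shown, and TTTGAA at its second start, which is not shown. FANCB held none of these patterns in its window. An E2F-type match stood in the windows of 7 of the 30 genes with a window (XRCC2, FANCC, EXO1, RMI1, MSH6, PMS2 and XPC). The share was 3.99% of the 27305 genes in the RefSeq table, which include genes not measured here. The 7 genes were 3 of the 13 genes 1.5-fold lower with MPA, 1 of the 2 higher ones and 3 of the 15 others. The match was thus not confined to the lower genes, and XRCC2 and PMS2 were below the floor. CCAAT stood in 17 of the 30, against 39.7% of the same 27305 genes, and TTTGAA in 5 of the 30, against 18.2%. In the same order of groups, CCAAT stood in 9 of 13, 1 of 2 and 7 of 15, and TTTGAA in 0 of 13, 1 of 2 and 4 of 15. These are matches of letters, and binding was not measured.

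MPA against control asks how the blockade of guanine nucleotide synthesis changes the mRNA of these genes. With MPA, 14 of the 30 genes above the floor were at least 1.5-fold lower and 2 were at least 1.5-fold higher. Over all 10821 genes above the floor, 7.49% were that much lower and 4.96% that much higher. The median log2 difference of the 30 genes was -0.53, against -0.0020 for all genes, and 26 of the 30 were below control, where 50.2% of all genes were. At 2-fold, 6 were lower (EXO1, FANCB, RAD54L, BRCA1, BARD1 and MSH6; 1.42% of all genes) and 2 higher (DDB2 and XPC; 1.52% of all genes). These counts use measured differences; the MPA signal of FANCB was under the floor, and with its bound in place of its measured value 13 genes were 1.5-fold lower and 5 were 2-fold lower. Fewer transcripts per cell and a smaller share of cells in the phase that makes them cannot be told apart in bulk RNA. Near the 1.5-fold line, PALB2 lay just past it at -0.65 on the log2 scale and FANCE just short of it at -0.53.

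**Figure D1:**
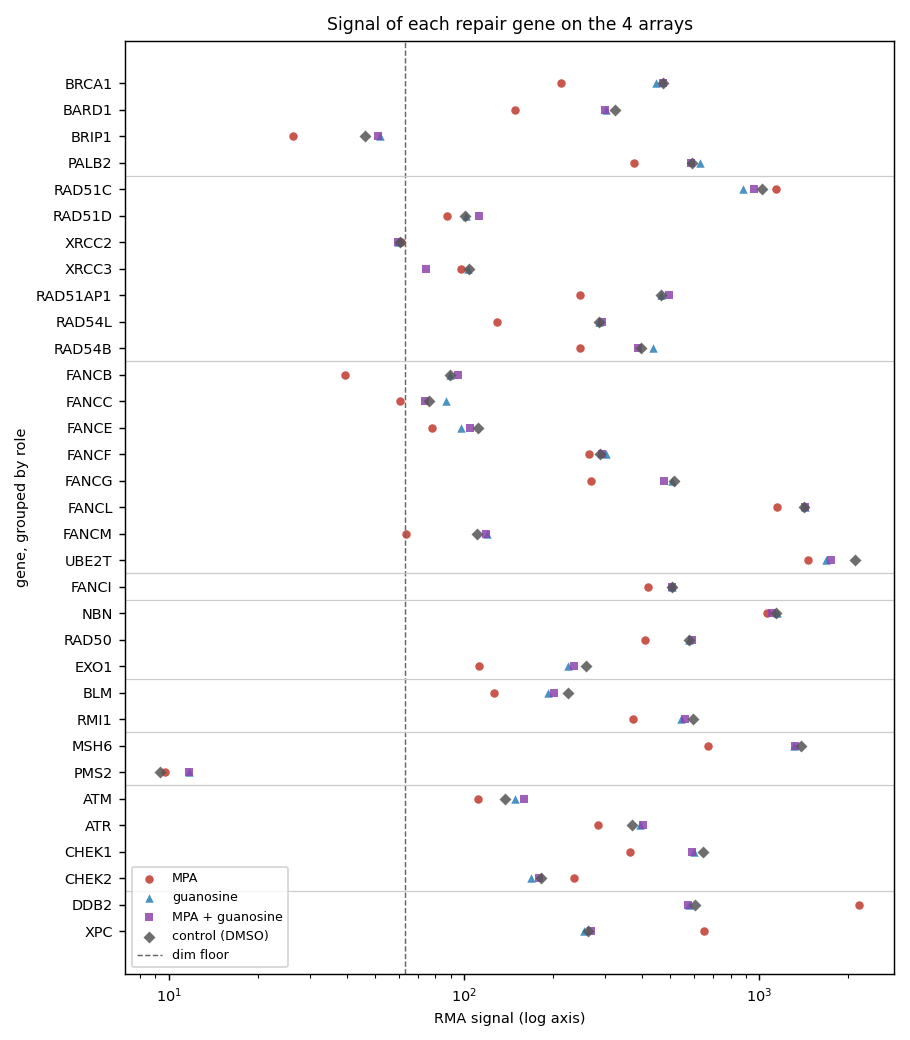
RMA signal (log axis) of the 33 measured repair genes on the arrays of MPA (circles), guanosine (triangles), MPA with guanosine (squares) and control (diamonds), grouped by role; each point is 1 array and the dashed line is the floor of 63.0. For most genes the MPA point stands to the left of the other 3, and for DDB2 and XPC it stands to the right.

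Among the genes that prepare broken DNA for strand exchange, BRCA1 and its binding partner BARD1, which together form a ubiquitin ligase, were both more than 2-fold lower with MPA. The BRCA1 signal was 212.6 with MPA, 447 with guanosine, 472 with both compounds and 473 in the control, a 2.22-fold lower value with MPA than in the control. Its other 3 probe sets above the floor differed by between -0.97 and -0.59 on the log2 scale, so none of them reached 2-fold. The probe set used is an _x_at one, and the only other kind among the 4 gave the smallest of these differences, -0.59. BARD1 read 149.1 with MPA, 304 with guanosine, 299 with both and 325 in the control (log2 -1.12 for MPA against control). PALB2, the bridge between BRCA1 and BRCA2, read 377 with MPA, 630.1 with guanosine, 588 with both and 593 in the control (log2 -0.65). For all 3 genes the MPA array was the lowest of the 4, and the other 3 arrays lay close together. BRIP1, the helicase bound to BRCA1, was below the floor on every array, at 26.4 with MPA, 51.9 with guanosine, 51.2 with both and 46.1 in the control, so no fold is given for it.

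The genes of strand invasion and exchange separated into those that were lower and those that were near control. RAD54L, a motor protein of strand invasion and exchange, had a signal of 128.9 with MPA, 287 with guanosine, 293 with both compounds and 287 in the control, a 2.23-fold lower value with MPA. RAD51AP1, which stimulates strand invasion, read 246 with MPA, 464 with guanosine, 494 with both and 464 in the control (log2 -0.91), and its other 3 probe sets gave between -1.03 and -0.65. RAD54B, a relative of RAD54L, read 247 with MPA, 437 with guanosine, 388 with both and 397 in the control (log2 -0.69). In these 3 genes the MPA array again stood apart below the others.

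RAD51C, RAD51D, XRCC2 and XRCC3, which form complexes with one another or with related proteins, differed less. RAD51D read 87.4 with MPA and 100.4 in the control (log2 -0.20, and 0.11 and -0.28 on its other probe sets above the floor). XRCC3 read 97.5 with MPA, 103.5 with guanosine, 74.4 with both compounds and 104 in the control, so here the array of both compounds was the low one, on a single probe set. XRCC2 lay between 59.6 and 61.0 on all arrays, below the floor. RAD51C read 1141 with MPA, 884 with guanosine, 959 with both and 1023 in the control (log2 0.16 for MPA against control). One of its other probe sets read 971 with MPA, 472 with guanosine, 484 with both and 488 in the control, which is 0.99 on the log2 scale against 0.16 and 0.07 on the brighter probe sets. The probe sets thus disagree in size, and the counts and other values given for RAD51C are those of the probe set used.

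In the Fanconi pathway, all 8 measured genes of the core complex and its ubiquitin-conjugating enzyme were below control with MPA, where 50.2% of all genes were. At least 1.5-fold lower were 3 of the 8 as measured, or 2 with FANCB at its bound, against 7.49% of all genes. FANCB, a core subunit encoded on the X chromosome, read 39.6 with MPA, 89.8 with guanosine, 95.7 with both compounds and 89.8 in the control. Because the MPA signal lay under the floor, only a bound holds, at least 1.43-fold lower; the measured log2 difference was -1.18. FANCG, a core subunit, read 269 with MPA, 508 with guanosine, 477 with both and 516 in the control (log2 -0.94). FANCM, the translocase that brings the core complex to DNA, read 63.7 with MPA, 119.4 with guanosine, 118.8 with both and 110.4 in the control (log2 -0.79). These 3 genes had the MPA array below all others, FANCM only just above the floor.

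The other members of the Fanconi group stayed under 1.5-fold. UBE2T, the ubiquitin-conjugating enzyme of the pathway, read 1467 with MPA, 1689 with guanosine, 1757 with both compounds and 2110 in the control. It was thus lower than control on all 3 treated arrays, by 0.52 with MPA, 0.32 with guanosine and 0.26 with both on the log2 scale. FANCL, the ubiquitin ligase subunit, read 1147 with MPA, 1434 with guanosine, 1428 with both and 1422 in the control (log2 -0.31). FANCE differed by -0.53, FANCC by -0.32, with its MPA signal of 60.9 below the floor, and FANCF by -0.13 on the log2 scale; FANCE was read by an _x_at probe set, whose probes can also bind other transcripts. FANCI, the partner of FANCD2, read 420.2 with MPA, 506 with guanosine, 505 with both and 508 in the control. Its 3 probe sets gave log2 differences of -0.27, -0.17 and -0.37 for MPA against control. The probe set at -0.37 was below control on all 3 treated arrays. It read 106.7 with MPA, 104.6 with guanosine, 102.7 with both and 138.3 in the control.

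Of the genes that cut back the broken end, the exonuclease gene EXO1 stood lowest of all 30. Its signal was 112.1 with MPA, 225 with guanosine, 237 with both compounds and 259.5 in the control, 2.32-fold lower with MPA, and 58 of the 10821 genes had a lower difference. RAD50 and NBN, which with MRE11 form the complex that opens resection, differed less. RAD50 read 412 with MPA, 578 with guanosine, 592 with both and 577 in the control (log2 -0.49). NBN read 1066 with MPA and 1140 in the control (log2 -0.10, and between -0.41 and 0.07 on its other 4 probe sets above the floor).

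BLM and RMI1 belong to the complex that dissolves joined DNA molecules without crossing over, and both were at least 1.5-fold lower with MPA. BLM, a helicase, read 126.8 with MPA, 192.4 with guanosine, 201.3 with both compounds and 224.9 in the control (log2 -0.83). RMI1, its scaffold partner, read 372 with MPA, 542 with guanosine, 559 with both and 597 in the control (log2 -0.68, and -0.49 on its other probe set above the floor). In both genes the control array was the highest of the 4 and the MPA array the lowest. Of the mismatch repair members, MSH6, which recognises mismatched bases, read 673 with MPA, 1309 with guanosine, 1318 with both and 1388 in the control, 2.06-fold lower with MPA, and its other probe set read 149.5 with MPA and 299 in the control. PMS2 was read only by 1 _x_at probe set, at 9.69 with MPA and 9.35 in the control, far below the floor, and nothing is drawn from it.

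Among the checkpoint kinases, CHEK1 was lower with MPA and CHEK2 was not. CHEK1, the kinase that ATR activates at stalled forks, read 364 with MPA, 603 with guanosine, 591 with both compounds and 646 in the control (log2 -0.83). All 6 of its probe sets gave differences below 0, the other 5 between -1.23 and -0.71. CHEK2, the kinase that ATM activates at breaks, read 235 with MPA, 168.7 with guanosine, 179.5 with both and 182.3 in the control (log2 0.37), on an _x_at probe set that can bind related sequences. ATR read 284 with MPA, 394 with guanosine, 405 with both and 369.7 in the control (log2 -0.38). ATM read 111.9 with MPA, 148.9 with guanosine, 159.6 with both and 137.4 in the control (log2 -0.30, and -0.04 on its other probe set above the floor). For these ATR and ATM probe sets the control array lay between the MPA array and the arrays with guanosine, whereas the other ATM probe set read 80.6 with MPA, 68.7 with guanosine, 67.2 with both and 82.6 in the control, with control highest.

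DDB2 and XPC were the only members past 1.5-fold in the upward direction. DDB2 had a signal of 2186 with MPA, 578 with guanosine, 575 with both compounds and 606 in the control. The MPA array was 3.61-fold above control, the 25th highest difference of the 10821 genes, and the other probe set gave a log2 difference of 1.93. XPC had 648 with MPA, 254 with guanosine, 269 with both and 264 in the control, 2.46-fold above control, and 1.18 on the log2 scale at its other probe set. The cell cycle inhibitor gene CDKN1A was also higher, by 1.59 on the log2 scale for MPA against control; DDB1, the partner of DDB2 in the lesion-binding complex, differed by 0.37.

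**Figure D2:**
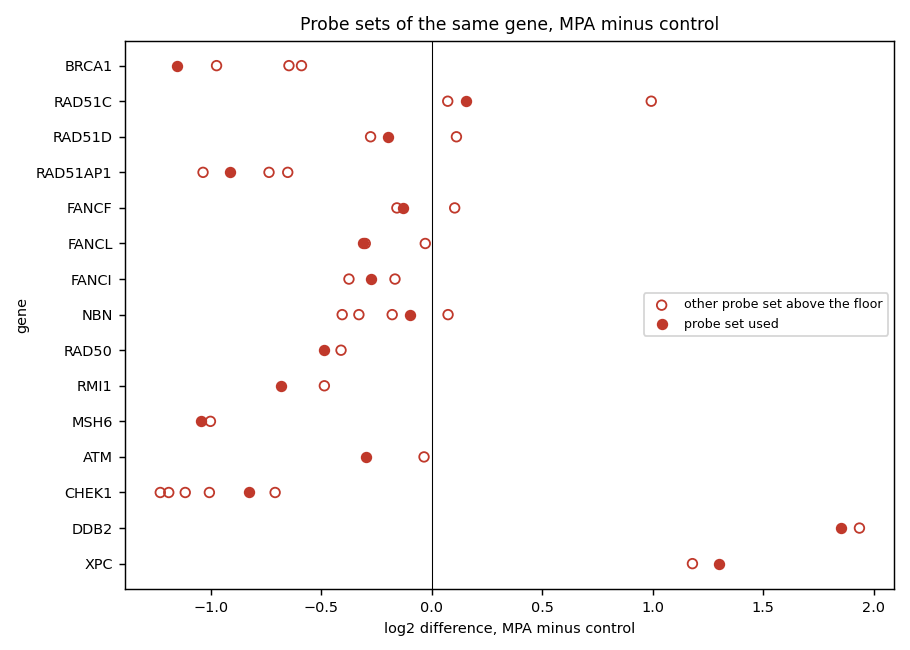
Log2 difference of MPA minus control for each probe set above the floor, for the 15 repair genes with more than 1 such probe set; filled points are the probe sets used and open points the others. The open points of BRCA1, RAD51AP1, CHEK1 and MSH6 lie on the same side of 0 as the filled ones, and 1 open point of RAD51C stands apart at 0.99.

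Over these genes, 15 had another probe set above the floor, 31 such probe sets in all, and 28 of the 31 had the sign of the probe set used; the exceptions belonged to RAD51D, FANCF and NBN. Of the 16 genes past 1.5-fold, 7 had another probe set above the floor, and all 15 of these had the same sign. The remaining 9 (BARD1, PALB2, RAD54L, RAD54B, FANCB, FANCG, FANCM, EXO1 and BLM) rested on 1 probe set above the floor each.

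The array of guanosine without MPA, set against control, shows the nucleoside by itself. None of the 30 genes was 1.5-fold lower or higher (0 and 0), near the shares of all genes (0.111% and 0.314%). The median difference of the 30 was -0.0065 on the log2 scale. UBE2T had the lowest difference, -0.32, followed by BLM at -0.23, RAD51C and EXO1 both at -0.21 and FANCE at -0.20. FANCC had the highest, 0.20. The G2 and mitosis list had a median of -0.43 on this array with 21 of 21 genes below control. The list of the replicative helicase and its loading factors had -0.18 with 14 of 17 below, where 50.2% of all genes were below.

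Both compounds against guanosine gives the difference with MPA where guanosine is supplied, and neither of its arrays enters the comparison of MPA with control. None of the 30 genes was past 1.5-fold in either direction (0 and 0), near the shares of all genes (0.00924% lower and 0% higher). The differences of the 30 lay between -0.47 for XRCC3 and 0.15 for RAD51D. The 14 genes that were lower with MPA alone had a median of -0.93 there and of 0.02 here, where they lay between -0.17 for RAD54B and 0.09 for FANCB. DDB2 differed by 1.85 with MPA alone and by -0.01 with guanosine present, and XPC by 1.30 and 0.08.

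**Figure D3:**
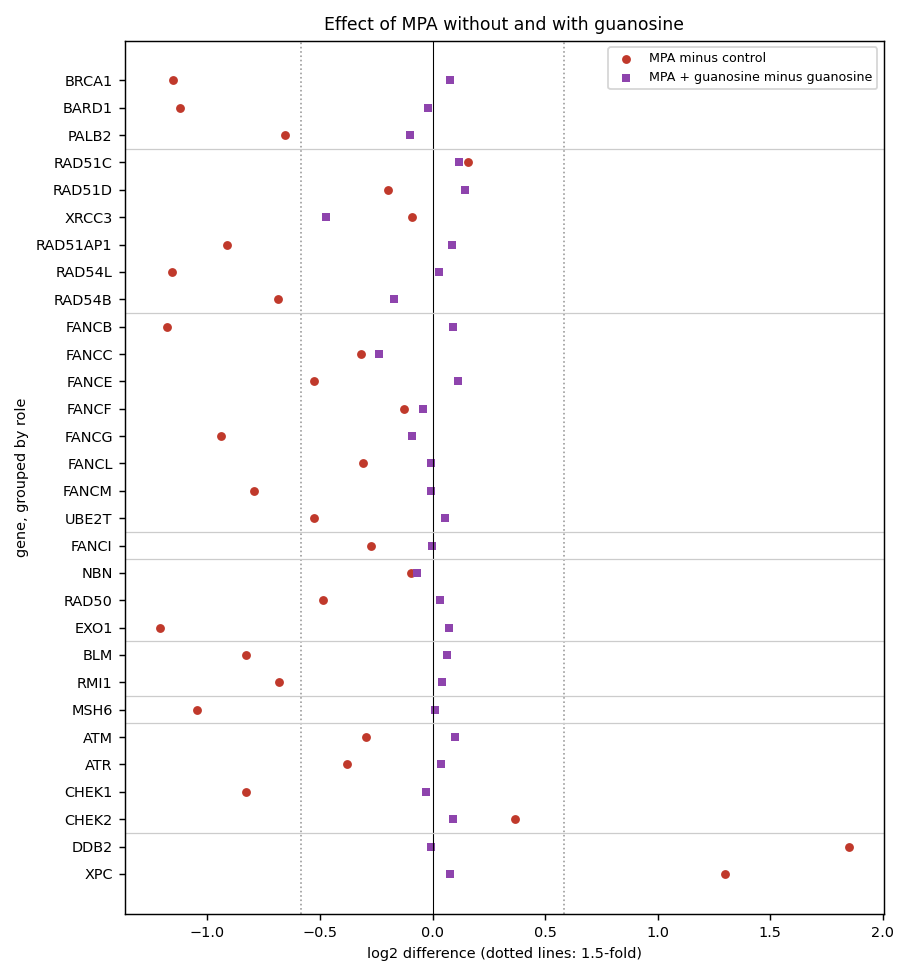
Log2 difference of each of the 30 repair genes above the floor for MPA minus control (circles) and for MPA with guanosine minus guanosine (squares), grouped by role; dotted lines mark 1.5-fold. The circles spread between -1.21 for EXO1 and 1.85 for DDB2, while the squares lie between -0.47 and 0.15.

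Both compounds against control shows how near the combined treatment came to untreated cells. Among the 30 genes, 0 were 1.5-fold lower and 0 higher, near the shares of all genes (0.129% and 0.379%). As a percentage of the control signal, the 14 genes lower with MPA stood between 43.2% (EXO1) and 63.5% (PALB2) on the MPA array, between 85.6% (BLM) and 110.03% (RAD54B) on the guanosine array and between 89.5% (BLM) and 107.6% (FANCM) on the array of both compounds. DDB2 stood at 360.5% with MPA, 95.3% with guanosine and 94.8% with both, and XPC at 245.8%, 96.3% and 101.8% in the same order of arrays. XRCC3 was furthest from control with both compounds, at 71.6%.

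Both compounds against MPA asks what guanosine changes in MPA-treated cells; it shares the MPA array with MPA against control, so the values of the 2 comparisons are not separate measurements. Here 13 of the 30 genes were at least 1.5-fold higher with both compounds and 2 at least 1.5-fold lower, against 8.6% and 4.32% of all genes. At 2-fold, 6 were higher as measured, FANCB among them, against 1.54% of all genes. With the MPA signal of FANCB under the floor, its bound was at least 1.52-fold. FANCB had the highest measured difference, 1.27, from a value below the floor with MPA, then RAD54L at 1.18, BRCA1 at 1.15 and EXO1 at 1.08. RMI1, lower with MPA by 0.68, differed by 0.58 here and fell just short of 1.5-fold. DDB2 was lower with both compounds than with MPA by 1.93 on the log2 scale and XPC by 1.27.

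MPA against guanosine, which uses the same MPA array as the comparison with control, had 13 of the 30 genes at least 1.5-fold lower and 2 higher, where 7.67% and 4.72% of all genes were. At 2-fold, 5 were lower as measured, FANCB among them with its MPA signal under the floor, against 1.35% of all genes. The median of the 30 genes was -0.50. Among genes with both signals above the floor, RAD54L at -1.16, BRCA1 at -1.07, BARD1 at -1.03 and EXO1 at -1.01 were lowest, and DDB2 at 1.92 highest.

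Other repair genes were examined from 6 further lists of 106 names, of which 94 were above the floor. In MPA against control, 26 of the 94 were at least 1.5-fold lower and 1 was higher, where 7.49% and 4.96% of all genes were, with a median of -0.26; the same shares stand behind the counts of each list below. Of 35 other homologous recombination and Fanconi genes, 12 were lower by that size and 1 higher, with a median of -0.35. The strand exchange gene RAD51B (-1.25) and the nuclease-helicase gene DNA2 (-1.20) were lowest, both with MPA signals below the floor, and FIGNL1 followed at -0.92. ABRAXAS1, a subunit of the BRCA1-A complex, was the higher one at 0.65, read at 335 with MPA and 213.2 in the control. Of 17 other checkpoint genes, 8 were lower and 0 higher, with a median of -0.47; the clamp subunit gene RAD1 read 260.3 with MPA and 591 in the control (-1.18), and WEE1, the kinase that holds back CDK1, read 494 with MPA and 1050 in the control (-1.09).

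The lists of other repair routes were as follows. The 16 base excision repair genes had a median of -0.21 with 2 lower by 1.5-fold, the uracil glycosylase gene UNG at -1.02 and PARP1 at -0.76. The 10 end joining genes had -0.18, with DCLRE1C, the Artemis nuclease gene, at -0.84 and PRKDC at -0.60 past 1.5-fold and NHEJ1 highest at 0.48. The 3 other mismatch repair genes had a median of -0.44 and were MSH3 at -0.62, PMS1 at -0.44 and MLH3 at 0.48. For MLH3 the other probe sets above the floor gave -0.10 and 0.21. Its probe set used was also above control with guanosine (0.41) and with both compounds (0.42). The 13 other nucleotide excision repair genes had a median of 0.18, with UVSSA, of transcription-coupled repair, at -1.08. Above control were 8 of the 13, not far from the 49.7% of all genes. None of the 94 passed 1.5-fold with guanosine against control, with both compounds against control, or with both against guanosine (0 in each). Few genes of the whole table did so. With guanosine 0.111% were lower and 0.314% higher, with both against control 0.129% and 0.379%, and with both against guanosine 0.00924% and 0%. The counts of 0 are near these shares.

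**Figure D4:**
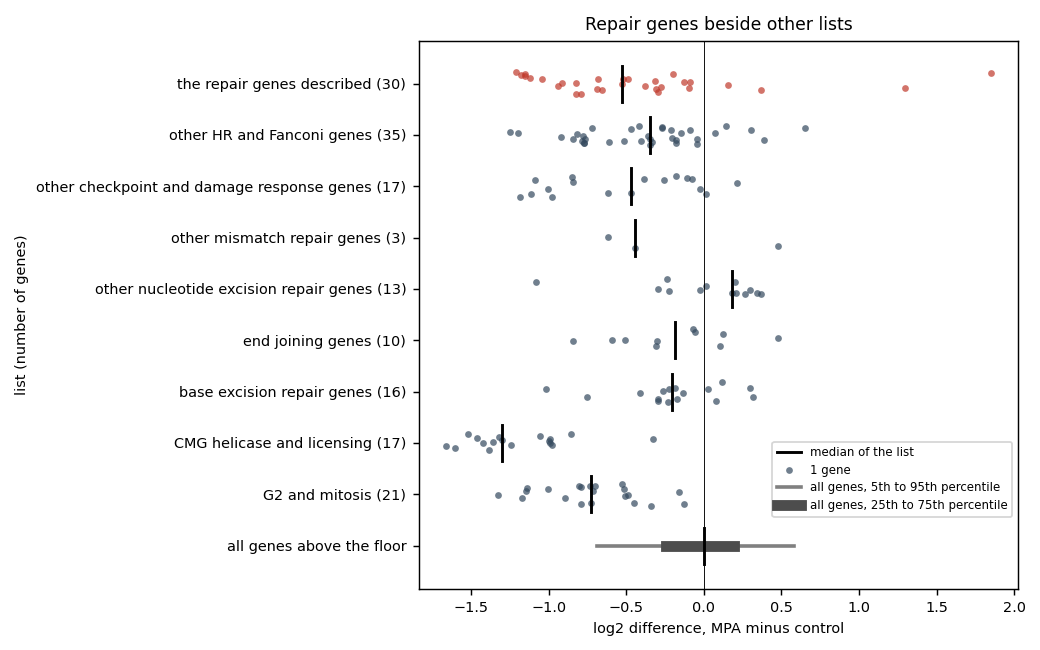
Log2 difference of MPA minus control for the 30 repair genes (top row), 6 lists of other repair genes and 2 lists of replication and mitosis genes; each point is 1 gene, black bars are list medians, and the bottom row gives the spread of all 10821 genes. The repair genes have a median of -0.53, between that of other recombination genes (-0.35) and that of the G2 and mitosis genes (-0.73), and their 2 points furthest to the right are DDB2 and XPC.

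Set beside the cell cycle lists in MPA against control, the repair genes had a median nearer to 0 than both the replication and the mitosis genes. The list of the replicative helicase and its loading factors had 16 of 17 genes at least 1.5-fold lower with MPA and a median of -1.30. The G2 and mitosis list had 13 of 21 and -0.73, where 7.49% of all genes were that much lower. MKI67, a proliferation marker of the second list, read 818 with MPA, 827 with guanosine, 864 with both compounds and 1149 in the control. Its log2 difference for MPA against control was -0.49 on this probe set and between -1.54 and -0.46 on its others above the floor. Over that list, 17 of 21 genes were lower with MPA than with guanosine, with a median of -0.33, where 51% of all genes were lower. MKI67, on the probe set used, was among those that differed least. In the same comparison the 30 repair genes had a median of -0.50, further from 0 than the mitosis list, the reverse of the order against control. Across the 30 repair genes, guanosine signals stood between 80.0% (UBE2T) and 114.6% (FANCC) of control, with a median of 99.6%. For the 14 genes lower with MPA they stood between 85.6% (BLM) and 110.03% (RAD54B), with a median of 96.5%. The difference between lists was not tested.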

How the data were processed

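RNA of U87MG cells in 4 conditions was hybridised to PrimeView arrays, 1 array per condition. The deposited values are linear intensity signals per probe set made by the authors with RMA, per the labels, which give no settings; its software and version: not given in the sources used here. RMA normalises between arrays, so a change in total mRNA per cell cannot be read from these values. The median intensity was 64.5 with MPA, 62.5 with guanosine, 61.8 with both compounds and 63.0 in the control.

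The log2 was taken. Of 49395 probe sets, 44994 had 1 symbol, 1832 several and 2569 none in the platform table; symbols were updated through Entrez IDs. A gene was its brightest probe set, and genes entered when their mean log2 over the 4 arrays was at or above the median of all values (63.0). The mean over all arrays was used so that no single array decides which genes enter. With 1 array per group there was no test, no p-value and no error; counts at 1.5-fold are set beside the same share of all genes, and precision is limited by the number of arrays. Counting was tested on simulated data.

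The genes, lists and rules were chosen with earlier results of these data known. All 37 genes could be named; of other repair lists the lowest, the highest and up to 2 more of each side. Alternatives were probe set choice, floor, scaling, offset and threshold. Cyclic loess used limma 3.58.1 in R 4.3.3; other steps used pandas 2.3.3 and numpy 2.4.6. Promoter windows came from RefSeq; 1 further pattern was searched in them and is not reported here.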

Additional observations from a re-analysis of the deposited data

How the results depend on the processing

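No paired analysis was possible because each condition has 1 array. The counts of the repair genes past 1.5-fold stayed within 1.5 times of those reported in 114 of 120 combinations of count and alternative. Among the 114 are the counts of 0 in guanosine against control, both against control and both against guanosine, where few genes of the whole table pass. The 6 combinations outside that range came from 2 settings that leave fewer genes or ask for a larger change. With the floor at the 75th percentile of the signals, which left 19 of the genes, 9 were lower in MPA against control, 8 lower in MPA against guanosine and 8 higher in both against MPA; at 2-fold these counts were 6, 5 and 6. The other alternatives were no filter, a filter on the brighter array, the median over the probe sets of each gene, _x_at probe sets left out, cyclic loess, median centring, an offset of 16 and, chosen after seeing the data, signals below the floor raised to it. Under these, 12 to 15 genes were lower in MPA against control, the median lay between -0.56 and -0.47, and DDB2 (1.81 to 1.93) and XPC (1.24 to 1.36) were higher in each run. Single calls were lost for PALB2 after cyclic loess (-0.58), and for FANCM (-0.58) and RMI1 (-0.42) with the median of probe sets. That median left 26 genes above the floor, and FANCM, at 17.8 with MPA and 26.6 in the control, was below it. The FANCB call was lost with signals raised to the floor, which left 13 lower genes in MPA against control and 12 in MPA against guanosine. In MPA against control, ATM stood at 0.09 with the median of its probe sets, which was below the floor, at 40.0 with MPA and 37.6 in the control. XRCC2, below the floor, changed sign under 3 alternatives (lowest value -0.12). Median centring moved the median of all genes by less than 0.1 on the log2 scale in each comparison. Depth has no counterpart on arrays: signals near the floor, as for FANCB and FANCM with MPA, are the least certain.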
